A study of Mus musculus with 16 samples.

Results

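The CXC chemokine ligands are small secreted proteins that steer the movement of white blood cells, and 8 of their genes, Cxcl1, Cxcl2, Cxcl3, Cxcl9, Cxcl10, Cxcl11, Cxcl14 and Cxcl16, are described here in RAW 264.7 cells, a mouse line of tumour origin with macrophage traits. They were chosen by name: every probe whose gene name in the array files equals a member was taken, which gave 11 probes for 8 of the 34779 gene names on the array. Cxcl9, Cxcl10 and Cxcl11 had 2 probes each and the others 1. Each condition had 4 arrays, 16 in all, and each array measured the total RNA of 1 culture in 1 colour.

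All cultures were moved to medium with 0.5% serum and then kept for 60 min in DMSO, the vehicle, or in 20 μM cordycepin in DMSO, followed by 60 min with or without lipopolysaccharide (LPS) at 1 μg/ml. The conditions are called DMSO (D0), cordycepin (C0), LPS+DMSO (D60) and LPS+cordycepin (C60), and a culture spent 120 min in DMSO or cordycepin in all. Cordycepin is an adenosine analogue that interferes with the polyadenylation of mRNA. The 4 conditions of a replicate number were wells of 1 plate collected on 1 day, so a replicate number is a culture day. Replicates 1 and 2 lay on 1 slide and replicates 3 and 4 on the other, so that the slide and these pairs of days cannot be told apart. A cell line of tumour origin stands for the macrophage here, with no other cell type in the culture and no measurement of secreted protein.

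Chemokine ligands of this family fall into groups by the receptor that they bind. Cxcl1, Cxcl2 and Cxcl3 act on Cxcr2 and draw neutrophils, whereas Cxcl9, Cxcl10 and Cxcl11 act on Cxcr3 and draw activated T cells and natural killer cells. In macrophages, LPS is sensed by Tlr4, whose adaptors lead to NF-kB and to Irf3, and NF-kB and interferon-activated factors bind upstream of many of these genes. Cxcl14 is mostly a product of epithelial and stromal cells, and Cxcl16 is made as a membrane-bound protein that also takes up oxidised lipoprotein.

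Of the members, 6 lie on chromosome 5, in 2 groups that match these roles, and their upstream sequences are shown because members that share letters there differed in signal. The 250 bases before the start of the gene, 5′ to 3′ on the strand of the gene, are from RefSeq on GRCm38.p6, at chr5:90890995-90891244 for Cxcl1, chr5:90903649-90903898 for Cxcl2 and chr5:90785851-90786100 for Cxcl3, all on the plus strand, and at chr5:92348890-92349139 on the minus strand for Cxcl10. Capitals mark matches, on either strand, to the kappa B form (GGG, any 3 bases, TTCC), a short form of the NF-kB site, and to the ISRE form (GAAA, any 2 bases, GAAA), a short form of the interferon-stimulated response element, and matches to TATAAA on the strand of the gene.
Cxcl1: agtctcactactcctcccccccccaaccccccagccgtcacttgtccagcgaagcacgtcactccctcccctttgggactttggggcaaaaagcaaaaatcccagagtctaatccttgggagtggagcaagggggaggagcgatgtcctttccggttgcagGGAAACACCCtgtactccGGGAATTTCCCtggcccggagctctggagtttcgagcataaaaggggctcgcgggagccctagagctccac
Cxcl2: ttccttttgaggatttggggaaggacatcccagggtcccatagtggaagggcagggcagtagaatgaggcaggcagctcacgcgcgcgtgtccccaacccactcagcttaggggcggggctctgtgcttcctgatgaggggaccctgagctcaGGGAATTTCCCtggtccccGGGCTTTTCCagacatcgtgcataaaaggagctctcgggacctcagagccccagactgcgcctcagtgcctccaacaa
Cxcl3: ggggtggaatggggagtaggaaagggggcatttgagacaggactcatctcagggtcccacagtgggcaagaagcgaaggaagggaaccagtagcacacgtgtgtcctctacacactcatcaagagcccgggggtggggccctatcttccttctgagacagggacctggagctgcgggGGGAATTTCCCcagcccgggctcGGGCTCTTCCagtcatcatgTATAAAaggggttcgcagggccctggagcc
Cxcl10: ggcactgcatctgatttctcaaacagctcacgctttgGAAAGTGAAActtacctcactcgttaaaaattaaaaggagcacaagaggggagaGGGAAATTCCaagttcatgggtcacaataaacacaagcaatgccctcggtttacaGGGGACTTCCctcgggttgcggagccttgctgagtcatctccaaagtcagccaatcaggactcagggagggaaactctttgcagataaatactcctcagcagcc

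The longest run of letters that Cxcl1, Cxcl2 and Cxcl3 all held was GGGAATTTCCC, 11 bases, which starts 71 bases before the start of Cxcl1, 97 before that of Cxcl2 and 73 before that of Cxcl3. Of 32851 promoters of this length, 14 (0.0426%) held these letters on either strand. The kappa B form, which lies within this run on both strands, was in 4.65% of the promoters and in 4 of the 6 members that had a promoter sequence. Cxcl10 held that form at 159 and 104 bases before its start, and the ISRE form, found in 2.98% of promoters, at 213 bases before it. TATAAA was in 7.59% of promoters and, among the sequences printed, in that of Cxcl3 only. Cxcl9 held neither the kappa B nor the ISRE form, and Cxcl14 held the ISRE form. A match describes letters and does not show that a protein was bound. Of the 3 genes with the shared run, Cxcl2 alone had a probe well above background on any array.

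Levels are log2 of the processed signal of a probe, scaled so that the 75th percentile of the probes detected on all arrays is the same on every array, and are compared between arrays for the same probe only. A probe is called well above background where the scanner software marks it so, and the dimmest such signal lay between 4.41 and 6.32 on the 16 arrays. Between 37.1% and 51.2% of the spots of an array were well above background, fewer on the slide with replicates 1 and 2 (21999 to 26055 spots) than on the other (27151 to 30362). Of 10 macrophage markers 9 were well above background on all arrays, against 0 of 6 fibroblast, 0 of 5 epithelial, 1 of 4 endothelial, 2 of 6 lymphocyte and 2 of 5 neutrophil markers, and Ms4a1, Ly6g and Col3a1 were well above background on none, whereas Cd3e and Cd4 of the lymphocyte and S100a8 and Elane of the neutrophil markers were so on all 16. With 4 arrays per condition, the number of arrays limits the precision of all changes given.

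Probes of 4 of the 8 ligands gave signal, and what the brighter Cxcl11 probe reads is uncertain, as set out below. Cxcl2, Cxcl10, Cxcl11 and Cxcl16 had at least 1 probe, 6 probes in all, that passed this mark on the 4 arrays of at least 1 condition and entered the test, while Cxcl1, Cxcl3, Cxcl9 and Cxcl14 did not and are given by their values. A probe that is dim in all but its highest condition enters this test through that condition, so the 4 tested genes do not stand for the 8. The plot of levels by array shows all 11 probes.

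**Figure D1:**
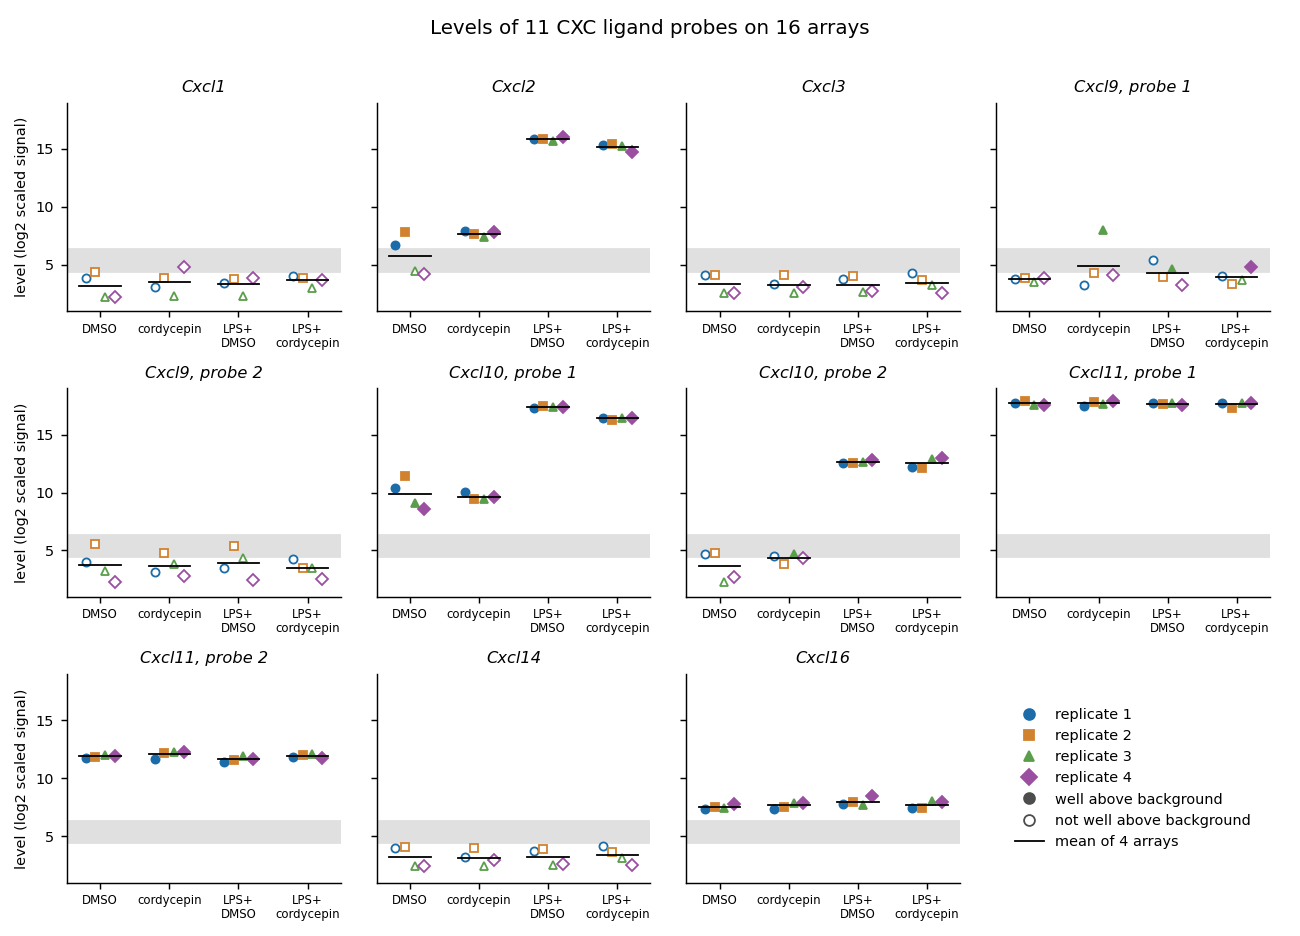
Levels (log2 scaled signal) of the 11 probes on the 16 arrays, by condition, with a symbol for each replicate and a bar for the mean of 4 arrays; filled symbols are well above background, and the grey band spans 4.41 to 6.32, the dimmest signals well above background. Cxcl2 and both Cxcl10 probes were far higher on the 8 LPS-treated arrays, Cxcl11 and Cxcl16 were well above background on all 16, and Cxcl1, Cxcl3, Cxcl14 and the second Cxcl9 probe were so on none.

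Among the neutrophil-attracting ligands, Cxcl2 gave the largest change of any gene tested after LPS. Its probe (NM_009140, mm9 chr5:91334534-91334593, plus strand) read 6.71, 7.81, 4.44 and 4.18 in DMSO for replicates 1 to 4. In LPS+DMSO it read 15.86, 15.89, 15.72 and 16.01. The conditions did not overlap, and the LPS arrays lay close together, whereas the DMSO arrays of replicates 3 and 4 were not well above background and those of replicates 1 and 2 were. The fitted log2 change was 10.09 (SE 0.58, 95% CI 8.85 to 11.32, limma adjusted p = 6.92e-09), higher on 4 of 4 days and the highest of 15874 genes tested. Non-overlap in the higher direction was found for 6.62% of all genes in this comparison. With levels raised to the dimmest detected signal of each array, the change was 9.99 and still the highest of the genes tested. The size differed between slides: the change was 8.62 on the slide of replicates 1 and 2 and 11.56 on the other. More RNA per cell and more cells that carry the RNA cannot be told apart in these bulk cultures.

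Cxcl1 (NM_008176, chr5:91321845-91321904) and Cxcl3 (NM_203320, chr5:91216694-91216753), the neighbours of Cxcl2 that draw the same cells, stayed below the detection mark. Cxcl1 read between 2.23 and 4.34 in DMSO and between 2.26 and 3.88 in LPS+DMSO. Cxcl3 read between 2.55 and 4.15 in DMSO and between 2.63 and 4.05 in LPS+DMSO. Neither probe was well above background on any of the 16 arrays, so no fold is given, and what these probes can show is that the signal stayed under the dimmest detected level after 60 min of LPS.

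Cxcl10, the interferon-inducible ligand of Cxcr3, showed the next largest rise of the ligands. Probe 1 (NM_021274, chr5:92775781-92775840, minus strand) read 10.38, 11.41, 9.07 and 8.60 in DMSO. In LPS+DMSO it read 17.27, 17.44, 17.40 and 17.35. All 16 values were well above background, and the conditions were far apart, with a spread over 4 arrays of 1.28 (SD) in DMSO and of 0.07 in LPS+DMSO. The log2 change was 7.50 (SE 0.42, limma adjusted p = 5.37e-09), higher on 4 of 4 days and rank 4 of 15874 genes, with 6.46 on the slide of replicates 1 and 2 and 8.54 on the other. Probe 2 (AK156907, chr5:92776616-92776675) lies 775 bases from probe 1 and upstream of it on the minus strand. It was not well above background on any DMSO array and read 12.59, 12.55, 12.63 and 12.79 in LPS+DMSO, which made the rise at least 160.5-fold against the dimmest detected signal of the DMSO arrays (measured means 3.62 and 12.64, limma adjusted p = 3.3e-09).

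The probes of Cxcl9 and Cxcl11, the other ligands of Cxcr3, did not follow those of Cxcl10. Probe 1 of Cxcl9 (NM_008599, chr5:92752796-92752855) was well above background on 3 of 16 arrays, cordycepin replicate 3 at 7.96, LPS+DMSO replicate 3 at 4.61 and LPS+cordycepin replicate 4 at 4.79. These arrays belonged to 3 conditions, and probe 2 (chr5:92752191-92752250) was well above background on none, at 2.32 to 5.58. The Cxcl11 probes, 13 bases apart, were bright in every condition. Probe 1 (NM_019494, chr5:92788567-92788626) read between 17.34 and 17.92 over the 16 arrays and probe 2 (chr5:92788640-92788699) between 11.43 and 12.27. The log2 change with LPS was -0.05 (SE 0.12, 95% CI -0.30 to 0.21, limma adjusted p = 0.886) for probe 1 and -0.24 (SE 0.14, adjusted p = 0.353) for probe 2.

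What the Cxcl11 probes read is uncertain, and a stretch of 30 bases is shown for that reason. RefSeq lists Cxcl11 as a transcribed pseudogene in the reference strain. Inside probe 1 lies the run below, at chr5:92788584-92788613 on mm9, minus strand, written 5′ to 3′, which 3 probes for other genes (Elk1, Glrx2 and Med16) also hold.
Cxcl11: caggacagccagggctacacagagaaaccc
Runs of 20 bases of that probe were found in 5 probes for other genes, whereas no such run of the other 10 ligand probes was found in any. Runs of 12 bases of Cxcl11 probe 1 were in 58 other probes, against 5 to 20 for the other ligand probes. RNA of other genes with these letters could bind probe 1, and its part in the signal was not tested. The flat signal of probe 1 thus does not show whether Cxcl11 RNA was present or changed.

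Cxcl14 (NM_019568, chr13:56390078-56390137) was not well above background on any array, at 2.46 to 4.19. Cxcl16 (NM_023158, chr11:70267780-70267839), whose receptor is Cxcr6, was well above background on all arrays, with similar levels in the 4 conditions. It read 7.31, 7.48, 7.44 and 7.75 in DMSO and 7.75, 7.96, 7.73 and 8.52 in LPS+DMSO, so that the conditions overlapped. The log2 change of 0.49 (SE 0.19, limma adjusted p = 0.11) did not pass the test, although it was upward on 4 of 4 days.

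In all, LPS raised 2 of the 4 tested ligands (Cxcl2 and Cxcl10) by 2-fold or more with an adjusted p below 0.05 and lowered 0, where 2.09% of all genes tested were called raised and 2.5% lowered. The median log2 change was 4.00 over the 4 tested ligands and -0.04 over all genes. The ligand medians and all counts of tested ligands include Cxcl11 by probe 1, and what it reads is uncertain. No ligand lay near the median of 4.00, with 10.09 for Cxcl2, 7.50 for Cxcl10, 0.49 for Cxcl16 and -0.05 for Cxcl11. The same 2 ligands were raised by LPS in the presence of cordycepin, where 1.69% of all genes were called raised and 1.22% lowered. In that setting Cxcl2 rose by 7.48 (SE 0.58, limma adjusted p = 3.39e-07, rank 1 of 15874) and Cxcl10 by 6.76 (SE 0.42, adjusted p = 3.3e-08, rank 3). Probe 2 of Cxcl10 rose by 8.19 (SE 0.47, adjusted p = 1.89e-08) from a mean of 4.35 in cordycepin, where 1 of 4 arrays was well above background, while the log2 change was -0.09 for Cxcl11 and 0.05 for Cxcl16, neither of them called. The plot of changes by culture day sets these values side by side; the comparisons share arrays, so they are not independent.

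**Figure D2:**
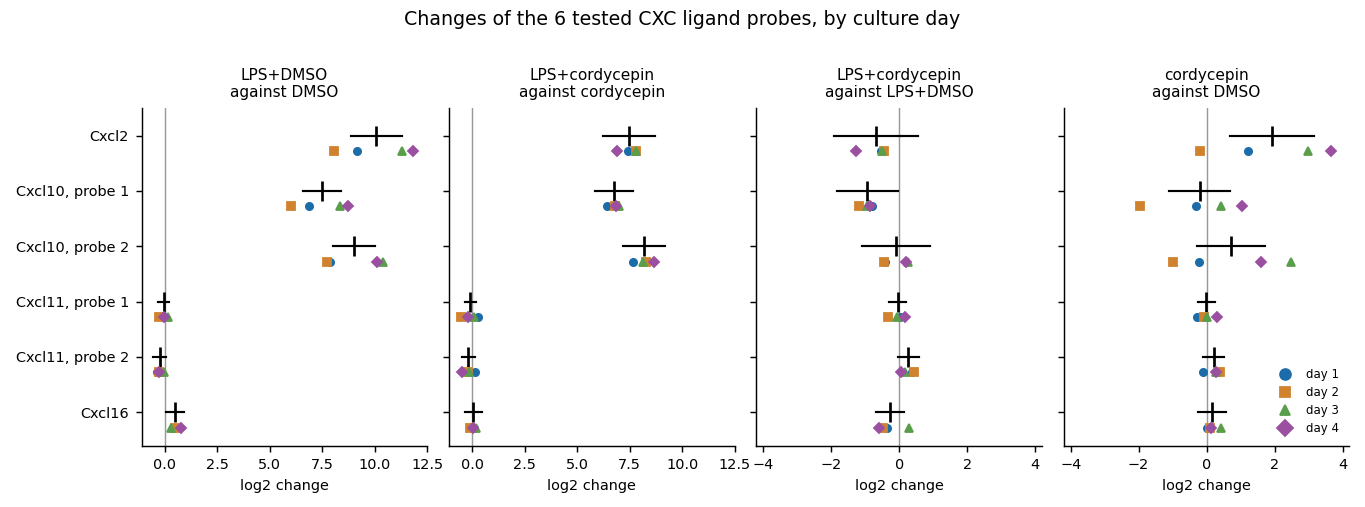
Log2 changes of the 6 tested probes in 4 comparisons; the black bar is the fitted change with its 95% confidence interval, and the symbols below it are the differences on each of the 4 culture days. Cxcl2 and both Cxcl10 probes were higher with LPS on every day, with and without cordycepin; Cxcl2 and Cxcl10 probe 1 were below LPS+DMSO in LPS+cordycepin on every day, and for cordycepin against DMSO the days differed in direction. The x axes of the panels differ in range.

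In LPS+cordycepin, the mean levels of Cxcl2 and of Cxcl10 probe 1 lay less than 2-fold below those in LPS+DMSO. Cxcl2 read 15.32, 15.43, 15.22 and 14.73 in LPS+cordycepin, below all 4 values of LPS+DMSO (15.72 to 16.01). Cxcl10 probe 1 read 16.48, 16.27, 16.45 and 16.48, below all 4 values of LPS+DMSO (17.27 to 17.44). For both, the 2 conditions did not overlap and the difference was downward on 4 of 4 days. Non-overlap in the lower direction was found for 10.2% of all genes in this comparison.

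The test depended on which arrays set the spread. In the fit of all 16 arrays, which includes the DMSO arrays (SD 1.77 for Cxcl2 and 1.28 for Cxcl10), the log2 change was -0.69 for Cxcl2 (SE 0.58, limma adjusted p = 0.504) and -0.95 for Cxcl10 (SE 0.42, limma adjusted p = 0.152), and 0 of the 4 ligands were called, where 1.52% of all genes were called lowered and 5.93% raised. By limma with the 8 LPS-treated arrays alone, the adjusted p was 0.0136 for Cxcl2 and 9.61e-05 for Cxcl10, still under 2-fold. Exact permutation of the 8 arrays, two-sided, gave p = 0.0286 for each, the smallest that 4 unpaired arrays against 4 allow. This permutation moved arrays freely between the conditions and did not keep the culture days paired. The univariate test that the study's methods name gave 0.0385 for Cxcl2 and 0.00044 for Cxcl10 after Benjamini-Hochberg adjustment over all genes, beside the exact p above. Within a slide the change was -0.50 and -0.89 for Cxcl2 and -0.98 and -0.91 for Cxcl10, the slide of replicates 1 and 2 first. Leaving out replicate 4 left -0.50 for Cxcl2. Over 20 fits with arrays left out, the limma adjusted p was 0.272 to 0.682 for Cxcl2 and 0.0222 to 0.346 for Cxcl10. The lowest value for Cxcl10 came without DMSO replicate 2, with all other arrays in the fit.

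The lower level of Cxcl10 was seen at probe 1 and not at probe 2. Probe 2 read 12.17, 12.10, 12.89 and 12.98 in LPS+cordycepin against 12.55 to 12.79 in LPS+DMSO, lower on the days of replicates 1 and 2 and higher on those of replicates 3 and 4, with a log2 change of -0.10 (SE 0.47, 95% CI -1.11 to 0.90, limma adjusted p = 0.933). Probe 1 less probe 2 on the same array was 4.69, 4.89, 4.77 and 4.56 in LPS+DMSO and 4.31, 4.17, 3.55 and 3.50 in LPS+cordycepin. The difference between the probes was thus smaller on all 4 LPS+cordycepin arrays, by 0.84 on the log2 scale (4.73 ± 0.14 against 3.88 ± 0.42, SD, n = 4, exact permutation p = 0.0286, two-sided). This comparison of probes was chosen after the values were seen, and its test did not keep the days paired. Whether AK156907 is an exonic, intronic or longer form of the Cxcl10 RNA was not tested.

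**Figure D3:**
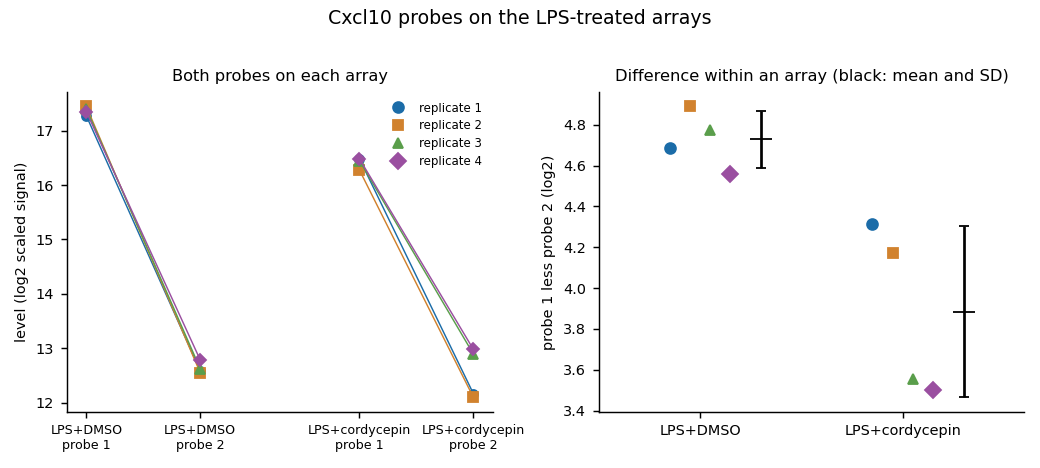
Left, levels (log2 scaled signal) of both Cxcl10 probes on the 8 LPS-treated arrays, with a line for each array; right, probe 1 less probe 2 on each array (log2), with the mean and SD of 4 arrays in black. The LPS+cordycepin arrays lay lower at probe 1 (16.27 to 16.48 against 17.27 to 17.44) but overlapped the others at probe 2, and their difference between probes (3.50 to 4.31) was below that of every LPS+DMSO array (4.56 to 4.89).

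Cxcl16 and Cxcl11 did not pass the test for cordycepin under LPS. Cxcl16 read 7.40, 7.48, 8.02 and 7.93 in LPS+cordycepin, overlapping LPS+DMSO, and the log2 change was -0.28 (SE 0.19, limma adjusted p = 0.397) with 3 of 4 days lower. The log2 change of Cxcl11 was -0.05 (SE 0.12, adjusted p = 0.851) at probe 1 and 0.26 (SE 0.14, adjusted p = 0.26) at probe 2, which lay higher on 4 of 4 days. Cxcl1, Cxcl3, Cxcl14 and Cxcl9 probe 2 were well above background on none of these 8 arrays either. The median log2 change was -0.49 over the 4 tested ligands and 0.03 over all genes.

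Without LPS, 1 of the 4 tested ligands, Cxcl2, passed the threshold for a rise in cordycepin, where 4.49% of all genes were called raised and 1.06% lowered. It read 7.91, 7.62, 7.41 and 7.84 in cordycepin, all well above background. In DMSO the 2 arrays of the other slide, replicates 3 and 4, were at background as given above, and DMSO replicate 2 (7.81) lay inside the cordycepin range. The log2 change was 1.91 (SE 0.58, limma adjusted p = 0.0341), upward on 3 of 4 days, but exact permutation of the 8 arrays gave p = 0.0857. On the slide of replicates 1 and 2 the change was 0.51 and on the other 3.32, and the call was lost in a limma fit of only these 2 conditions (adjusted p = 0.128) and with normexp, where the change was 0.95. It was also lost when any 1 cordycepin array, DMSO replicate 3 or 4, or all arrays of replicate 1, 3 or 4 were left out (log2 change 1.33 to 2.15, limma adjusted p = 0.0554 to 0.216).

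Cxcl10 at rest read 10.06, 9.46, 9.48 and 9.64 in cordycepin, inside the DMSO range of 8.60 to 11.41. The log2 change was -0.21 (SE 0.42, limma adjusted p = 0.813), with 2 days up and 2 days down, -1.14 on the slide of replicates 1 and 2 and 0.73 on the other. Both Cxcl2 and Cxcl10 thus spread more widely in DMSO (SD 1.77 and 1.28) than in cordycepin (SD 0.23 and 0.28), with the 2 DMSO arrays of the slide of replicates 1 and 2 higher for both. Cxcl11 (-0.01, adjusted p = 0.969) and Cxcl16 (0.16, adjusted p = 0.667) did not pass the test.

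The interaction, which is the response to LPS with cordycepin minus the response without it, passed the test for 0 of the 4 ligands, where 0.195% of all genes were called raised and 0.17% lowered. It was -2.61 for Cxcl2 (SE 0.82, limma adjusted p = 0.248), -0.74 for Cxcl10 (SE 0.59, adjusted p = 0.908), -0.44 for Cxcl16 (SE 0.27, adjusted p = 0.832) and -0.04 for Cxcl11 (SE 0.17, adjusted p = 0.993). The unadjusted p for Cxcl2 was 0.00615 by limma, and the interaction was downward on 4 of 4 days, from -0.27 to -4.93 by day, widest on the days whose DMSO array was at background. With limma and scaling to 6 spiked-in control probes, the interaction of Cxcl2 was -2.80 and passed (adjusted p = 0.0222), and without DMSO replicate 2 it was -3.28 and passed too (adjusted p = 0.0200). With normexp it was -1.64 (limma adjusted p = 0.341), and leaving out arrays gave -3.39 to -1.83 (limma adjusted p = 0.0200 to 0.867).

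Over all 16 arrays, Cxcl2 was most like Nfkbia (Pearson r = 0.988), Kdm6b (0.982) and Tnf (0.981), and Cxcl10 most like Ccrl2 (0.994), Ier3 (0.994) and Maff (0.993). These are correlations over arrays of 4 conditions, given as a description, and LPS sets most of them apart: the 6 genes rose with LPS by 3.28, 4.22, 6.71, 5.40, 5.02 and 4.84 on the log2 scale, in the order named. In LPS+cordycepin against LPS+DMSO their changes were -0.05, 0.23, -1.07, -0.25, -0.72 and -0.57. Cxcl11 was most like Fam177a2, Rack1 and Rpl6 (r = 0.924, 0.920 and 0.918) and Cxcl16 most like Ppp2r3d, Stau1 and Zfp957 (r = 0.830, 0.816 and 0.814), in profiles with little change between conditions.

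Other ligands and the receptors of the family were mostly below detection. Of 7 further CXC ligands only Pf4, the platelet factor, entered the test, with means of 13.69 ± 0.51 in DMSO and 13.41 ± 0.15 in LPS+DMSO (SD, n = 4) and no call in any of the 5 comparisons. Of 8 receptors 2 entered the test. Cxcr3, the receptor of Cxcl9, Cxcl10 and Cxcl11, had means of 10.47 ± 0.34 in DMSO, 10.47 ± 0.21 in LPS+DMSO, 10.71 ± 0.22 in cordycepin and 10.56 ± 0.16 in LPS+cordycepin and was called in none. Cxcr4, the receptor of Cxcl12, had means of 9.50 ± 0.31, 8.42 ± 0.54, 8.67 ± 0.50 and 7.97 ± 0.68 in the same order and fell by 1.08 with LPS (SE 0.34, limma adjusted p = 0.0425, 4 of 4 days), a call lost under quantile normalization (-0.99) and under spiked-in scaling (-1.19, adjusted p = 0.16). Cxcr2, the receptor of Cxcl1 to Cxcl3, was not well above background on any array (means 3.39 to 4.06), and the same held for Cxcr1, Cxcr5, Ackr1 and Ackr3. Cxcr6, which binds Cxcl16, was well above background on 2 DMSO arrays and 1 cordycepin array.

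Genes between Tlr4 and the ligands moved with LPS in part. Of 30 tested genes of a TLR4 and NF-kB list, 9 rose and 0 fell, where 2.09% of all genes were called raised and 2.5% lowered, with a median log2 change of 0.20 against -0.04 over all genes. Those that rose were mostly regulators and subunits of NF-kB. Tnfaip3 rose by 5.24 (SE 0.13), Nfkbiz by 5.21 (SE 0.22), Nfkbia by 3.28 (SE 0.08), Nfkbie by 1.75, Relb by 1.71 and Nfkb2 by 1.40. The kinase Ikbke (1.5), the adaptor Ticam1 (1.49) and the coreceptor Cd14 (1.12) also rose. Under LPS, cordycepin lowered 4 of the 30 and raised 0, against 1.52% and 5.93% of all genes, namely Nfkbie (log2 change -1.39, SE 0.11, limma adjusted p = 2.88e-07), Ticam1 (-1.13), Ikbke (-1.07) and Nfkbiz (-1.05, adjusted p = 0.00251), with a median of -0.24 over the list. Without LPS 0 of the 30 were called for cordycepin, where 4.49% of all genes were called raised and 1.06% lowered. With no minimum fold, 6 of the 30 were lower and 1 higher at a limma adjusted p under 0.05. By the same rule, 1202 of all 15874 genes tested were lower and 1303 higher. Mean levels in DMSO and in cordycepin were 9.28 and 8.61 for Nfkbie and 9.78 and 8.96 for Ticam1. They were 8.96 and 9.05 for Ikbke and 7.17 and 7.30 for Nfkbiz.

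On the interferon side, which drives Cxcl9, Cxcl10 and Cxcl11, 5 of 21 tested genes rose with LPS and 1 fell, beside the same 2.09% and 2.5% of all genes. Ifnb1, the gene of interferon beta, went from 4.01 ± 1.97 in DMSO, where 1 of 4 arrays was well above background, to 11.68 ± 0.16 in LPS+DMSO (log2 change 7.67, SE 0.65, limma adjusted p = 6.31e-07). Rsad2 (2.95), Isg15 (2.80), Oasl1 (2.73) and Ifit1 (1.72, on 3 of 4 days), all interferon-stimulated genes, rose as well, and Stat2, a transducer of interferon signals, fell by 1.27. Under LPS, cordycepin lowered 2 of the 21 and raised 0, beside 1.52% and 5.93% of all genes, namely Rsad2 (log2 change -2.54, SE 0.62, limma adjusted p = 0.00816) and Oasl1 (-1.21, SE 0.39, adjusted p = 0.0407). The log2 change of Ifnb1 was -1.30 (SE 0.65, adjusted p = 0.214), lower on 4 of 4 days, with 10.38 ± 0.07 in LPS+cordycepin. By limma with the 8 LPS-treated arrays alone, the adjusted p of Ifnb1 was 4.08e-05, and 4 of the 21 were lowered (Ifnb1, Ifit1, Rsad2 and Oasl1) and 0 raised, where 1.48% of all genes were lowered. The median over the list was -0.24. Cxcl10 probe 1, at -0.95, lay between Rsad2 and this median, and probe 2, at -0.10, lay above it. A link between Cxcl10 and this list was not tested.

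LPS raised 2 and lowered 0 of 10 regulators of chemokine mRNA decay, all tested. Of all genes, 2.09% were called raised and 2.5% lowered. Zfp36, which marks AU-rich mRNAs for decay, rose by 5.85 (SE 0.31, limma adjusted p = 2.81e-09). Zc3h12a, an endonuclease that cleaves mRNA, rose by 4.70 (SE 0.39, limma adjusted p = 5.5e-07). In DMSO, 2 of 4 arrays detected each of them well above background (means 5.63 and 5.46), so these sizes are set partly against background. In the fit of all arrays, 0 of the 10 were called for cordycepin under LPS, where 1.52% of all genes were called lowered and 5.93% raised. Zc3h12a was lower by over 2-fold (log2 change -1.03) but did not pass the adjusted p in that fit. With the 8 LPS-treated arrays alone, Zc3h12a was called lowered (limma adjusted p = 0.00412). With no minimum fold, 3 of the 10 were lower at a limma adjusted p under 0.05 in the fit of all arrays, against 8.47% of all genes. The plot of ligands and pathways shows these lists. Marker genes of other cells moved in places: Mpo, a neutrophil granule gene, was 3.97 higher in LPS+cordycepin than in LPS+DMSO and Cd79a, a B cell gene, 2.63 higher, each the 1 called gene of its list. The log2 of the summed signal of the 5 neutrophil markers was 9.75 to 10.60 in LPS+DMSO and 10.34 to 11.19 in LPS+cordycepin, and that of the 6 lymphocyte markers 10.48 to 10.83 and 10.37 to 11.91, with Ly6g, S100a9 and Ms4a1 well above background on no array and Cd3e, Cd4, S100a8 and Elane on all, and the part of these in the values of the ligands was not tested.

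**Figure D4:**
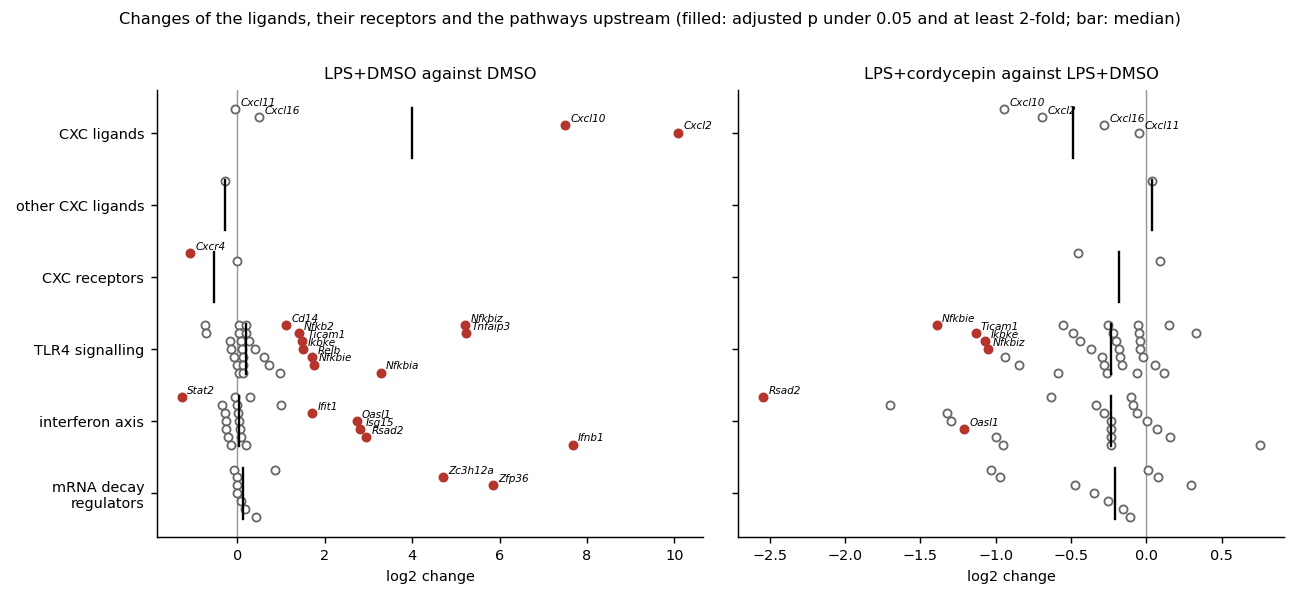
Log2 changes of every tested gene of 6 lists, for LPS+DMSO against DMSO (left) and LPS+cordycepin against LPS+DMSO (right); each circle is a gene, filled where it passed an adjusted p under 0.05 and 2-fold, and the bar is the median of the list. On the left Cxcl2 and Cxcl10 lie at 10.09 and 7.50, beside Ifnb1 at 7.67, and on the right the filled genes are Rsad2, Nfkbie, Oasl1, Ticam1, Ikbke and Nfkbiz and none of the ligands.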

How the data were processed

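The deposited scanner files, 1 for each of 16 arrays, hold, spot by spot, a mean, a local background and a processed intensity, which the authors read with Agilent Feature Extraction (10.7.3.1 in the file header and 10.10.1.1 in the submitters' processing notes) and did not normalize between arrays. The deposited log2 value table of the authors covers 23730 probes, correlated at 0.995 to 0.998 with the log2 scanner values on each array and served as an alternative; how it was normalized is not given in the sources used here.

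The processed intensity was log2-transformed, outlier spots were left out and spots of a probe were averaged (127 missing values of 55681 probes). Each array was scaled to its 75th percentile over the 18057 probes that every array detected well above background. Probes were kept where all 4 arrays of at least 1 condition were well above background (21591 probes), and the brightest stood for a gene, which left 15874 genes; other probes of members were tested in a fit of every kept probe. The 4 condition means were fitted with limma 3.58.1 in R 4.3.3, adjusted by Benjamini-Hochberg over all genes, and called at an adjusted p under 0.05 and 2-fold. The procedure was tested on simulated data. Bounds of the form at least N-fold set the mean of the brighter condition against the mean, over arrays of the dimmer, of the higher of the probe itself and the dimmest signal well above background. Python 3.11.15, numpy 2.4.6, pandas 2.3.3 and matplotlib 3.10.9 were used for sequences and plots. Probe positions are those of the files (mm9), whose gene annotation was not used here; promoters and gene types are from RefSeq (GRCm38.p6).

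Per the series description, replicates of 1 number were collected on the same day, so the numbers pair the samples. The residuals of same-day arrays correlated at a mean of 0.20 (-0.06 to 0.44, 20 of 24 pairs over 0.1), against 0.18 between days on the same slide and -0.19 between slides. No block was used in the values given, and blocks for the day and the slide were tried. The exact permutation tests did not keep the days paired. The members and the gene lists were chosen with earlier results of these data known. Genes named are all members, the receptors, the list genes called in a comparison and, for each tested member, the 3 genes most like it. The test of the difference between the Cxcl10 probes, the floor for dim levels and the exact test of Cxcl2 at rest were added after the values were seen.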

Additional observations from a re-analysis of the deposited data

Results flagged for a closer look

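Of the 44 groups of 4 arrays (11 probes in 4 conditions), 3 held 1 array that stood apart, its distance to the nearest array filling most of the range of the group (beyond the 95% critical value of Dixon), and chance gives this in about 1 of 20 groups. Cxcl10 probe 1 was lowest in LPS+cordycepin replicate 2, at 16.27 against 16.45 to 16.48 (gap 0.835 of the range). Cxcl11 probe 1 was lowest in the same culture, at 17.34 against 17.70 to 17.73 (0.915). Cxcl11 probe 2 was lowest in cordycepin replicate 1, at 11.66 against 12.22 to 12.27 (0.918).

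Between Tlr4 and the ligands, the response to LPS differed between the media with and without cordycepin for Ikbke, a kinase upstream of Irf3, by -1.16 on the log2 scale (limma adjusted p = 0.011), and for Tnfaip3, an inhibitor of NF-kB signalling, by -1.20 (limma adjusted p = 0.0103). Both calls were lost under scaling to spiked-in controls, at -1.35 and -1.39 (limma adjusted p = 1 for both).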

How the results depend on the processing

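Of 865 values of the ligands under other settings, 794 kept their direction and their side of the threshold. The rise of Cxcl2 and Cxcl10 with LPS, with and without cordycepin, passed under all settings that gave a value, and Cxcl2 was not tested where all 16 arrays had to be well above background, so the count of raised ligands was 1 there in place of 2. For cordycepin at rest, 1 ligand (Cxcl2) was called, and 0 were at an adjusted p under 0.01, without a filter on dim probes, with normexp, with quantile normalization, with the authors' value table, when only the 2 conditions were fitted, or with the 16-array filter. Leaving out arrays gave 0 to 1 for that count, with a change of 1.33 to 2.61 for Cxcl2 (0.95 with normexp), and 0 to 1 for the interaction, where the 1 was Cxcl2 without DMSO replicate 2 (-3.28, limma adjusted p = 0.0200). Scaling to spiked-in controls also called Cxcl2 there, 1 against 0 (-2.80). Some values that were not called changed sign. For cordycepin at rest, Cxcl10 read 0.26 with the mean of its probes, 0.72 with the dimmer probe, which was well above background on 0 of 4 DMSO and 1 of 4 cordycepin arrays and so gives no direction, and -0.63 to 0.38 with arrays left out. Cxcl11 in the same comparison read 0.10 (mean of probes), 0.21 (dimmer probe), 0.049 (spiked-in scaling), 0.018 (median scaling) and -0.12 to 0.084 (arrays left out). Its interaction was 0.0091, 0.058 and -0.15 to 0.053 with the mean of probes, the dimmer probe and arrays left out, and its change with cordycepin under LPS was 0.11, 0.26 and -0.13 to 0.042. Its change with LPS was 0.030 when scaled over all probes and -0.12 to 0.023 with arrays left out, and with LPS in cordycepin -0.20 to 0.056. Cxcl16 with LPS in cordycepin was -0.25 under spiked-in scaling and -0.062 to 0.16 with arrays left out. The replicate block changed no call of a ligand. For cordycepin under LPS, the replicate block gave a limma adjusted p of 0.135 for Cxcl10 and 0.425 for Cxcl2, and it moved the genes called in the interaction from 31 raised and 27 lowered to 61 and 48. Over all settings, genes called raised or lowered numbered 213 to 815 and 149 to 1556 for LPS, 342 to 1704 and 123 to 1345 for cordycepin under LPS, 226 to 1303 and 70 to 1202 for cordycepin at rest, 143 to 563 and 54 to 733 for LPS in cordycepin, and 9 to 66 and 3 to 49 for the interaction. Scaling to spiked-in controls moved the median change of all genes with LPS in cordycepin from -0.05 to -0.35, its split from 268 raised and 194 lowered to 160 and 223, and that of the interaction to 9 and 3. It kept 40 of 50 calls of the listed genes, against 48 under quantile normalization and 50 under the other scalings and both blocks. The cause of these differences was not tested. In DMSO, 2 of 4 arrays detected Cxcl2 well above background, and the other 2 give only an upper limit of its level. Raising levels to the dimmest detected signal was added after the values were seen.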
